A study of Rattus norvegicus with 6 samples.

Results

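The genes described here make, inactivate, sense or respond to the hormonal form of vitamin D in the kidney and move calcium back from the tubular fluid: Cyp27b1, Cyp24a1, Vdr, Rxra, Kl, Pth1r, Calb1, S100g, Trpv5 and Slc8a1. They were chosen by name and role, not by a threshold on measured values, and every non-control probe whose RefSeq accession belongs to one of these rat symbols was used, which gave 17 of the 61657 non-control probes and 10 of the 15277 genes named on the array. They were picked with earlier results of this contrast known, so the treated against vehicle values below are a description and are not independent support for anything. Renal cortex, the outer part of the kidney, came from male Sprague-Dawley rats (Crl:CD(SD)) bought at 5 weeks of age and kept on a basal diet. Dosing lasted 4 weeks. The vehicle group (n = 3) received corn oil, and the treated group (n = 3) received 1000 mg/kg/day of o-anthranilic acid. Total RNA of each animal was measured on 1 single-colour (Cy3) Agilent array, and the labels call the animals biological replicates. o-Anthranilic acid, or ortho-aminobenzoic acid, is an aromatic acid that mammals also form from tryptophan.

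Vitamin D becomes a hormone in the proximal tubule. Filtered calcidiol, bound to its carrier protein, is taken up by the endocytic receptors megalin and cubilin. CYP27B1 converts it to calcitriol, and CYP24A1 breaks down both forms. Calcitriol acts through the vitamin D receptor (Vdr), which pairs with the retinoid X receptor (Rxra). Parathyroid hormone, through its receptor Pth1r, is known to raise Cyp27b1 and lower Cyp24a1. FGF23, through FGF receptors with the co-receptor klotho (Kl), and calcitriol itself are known to do the reverse. In the distal convoluted and connecting tubule calcium enters through the channel TRPV5, is carried by the calbindins Calb1 and S100g, and leaves through the exchanger encoded by Slc8a1.

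Of the 10 genes, 7 had a promoter window in the RefSeq table (build GRCr8), covering 250 bases before to 50 bases after the annotated start. Cyp24a1, Calb1 and S100g did not. The window of Cyp27b1 is printed because this gene had the largest difference between the groups among the 10. It lies at chr7:64756376-64756675 on the plus strand, and the capitals mark matches on either strand to CCAAT and to the nuclear receptor half-site AGGTCA, in which G was also accepted at the first base and T at the third.

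Cyp27b1: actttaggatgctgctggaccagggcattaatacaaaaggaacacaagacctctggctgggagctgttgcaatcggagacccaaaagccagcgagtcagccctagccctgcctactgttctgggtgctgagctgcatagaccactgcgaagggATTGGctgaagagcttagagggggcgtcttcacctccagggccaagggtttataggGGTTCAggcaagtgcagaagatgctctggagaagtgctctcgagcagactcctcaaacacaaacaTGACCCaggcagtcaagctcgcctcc

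In this window the CCAAT match is on the minus strand at -97 to -93 from the start, and the half-site matches are on the plus strand at -41 to -36 and on the minus strand at 25 to 30. A half-site was found in 3 of the 7 windows (Cyp27b1, Vdr and Trpv5) and in 44.4% of 33469 windows of the same length. CCAAT was found in 2 of the 7, Cyp27b1 and Slc8a1, and in 37.5% of all windows. The DR3 vitamin D response element, a pair of these half-sites in the same direction with a spacer of 3 bases, was in 0 of the 7 windows and in 0.0986% of all. Matches to GGGCGG and TATAAA were also searched and are not marked in the printed window. GGGCGG was found in 4 of the 7 (Rxra, Vdr, Pth1r and Kl) and in 33.1% of all windows. TATAAA was found in 1 of the 7, Cyp27b1, on the minus strand at -49 to -44, and in 14.2% of all windows. The arrays measured RNA and not binding to these letters.

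Levels are given as the log2 processed signal minus the 75th percentile of the same array, so 0 is the 75th percentile and a step of 1 is a doubling. All 17 probes were well above background on all 6 arrays and all were tested. The question was how the level of each transcript differed with o-anthranilic acid. It was fitted with limma over all 41551 probes that were well above background on at least 3 arrays, with Benjamini-Hochberg adjustment and a threshold of 0.05. None of the 17 probes passed, 0 higher and 0 lower, and limma called 0 of the 41551 probes, which is 0%. The smallest adjusted p in the whole fit was 0.102. At an unadjusted p under 0.05 there was 1 of the 17 probes, that of Cyp27b1, beside 3512 of all probes, or 8.45%. The median log2 fold change was 0.01 over the 17 probes and -0.01 over all probes.

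Cyp27b1 encodes the hydroxylase that makes calcitriol and is the gene on which the pathway turns. Its single probe (A_43_P12926, NM_053763) stood at -0.03, 0.22 and -0.17 in vehicle replicates 1, 2 and 3. In treated replicates 1, 2 and 3 it stood at -2.38, -1.18 and -1.01. All treated animals lay below all vehicle animals, and treated replicate 1 was the lowest of the 6. The vehicle mean was 0.01 ± 0.20 (SD, n = 3) and the treated mean was -1.52 ± 0.75 (SD, n = 3). The level was 2.89-fold lower in the treated mean, with a log2 fold change of -1.53 ± 0.37 (SE) and an unadjusted 95% interval from -2.42 to -0.64. The limma adjusted p was 0.453, so the difference did not pass. The log2 fold change was -1.10 without treated replicate 1 and -1.70 on the slide that held both groups, where treated replicate 2 is absent. It was -1.32 with normexp background correction, and over all 15 other settings the adjusted p did not go below 0.383.

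Cyp24a1 encodes the enzyme that breaks calcitriol down, and it is the classic target gene of the vitamin D receptor. Its brighter probe (A_43_P19543, NM_201635) stood at 1.64, 0.80 and 0.64 in vehicle replicates 1, 2 and 3 and at 1.56, 1.48 and 2.24 in treated replicates 1, 2 and 3. Vehicle replicate 1 lay above treated replicates 1 and 2, so the groups overlapped. The log2 fold change was 0.73 ± 0.32 (SE), with a 95% interval from -0.06 to 1.52 and a limma adjusted p of 0.606. The other probe (A_64_P139422) stood at -0.40, -1.16 and -1.55 in vehicle and at -0.60, -0.71 and 0.19 in treated animals. It placed the 6 animals in the same order as the brighter probe, with treated replicate 3 highest and vehicle replicate 3 lowest. Its log2 fold change was 0.67 ± 0.36 (SE), with a limma adjusted p of 0.656. The brighter probe stood at 0.49 without treated replicate 3 and at 1.04 without vehicle replicate 1, and the other probe at 0.39 and 0.99. On the slide that held both groups the values were 0.87 and 0.84. Neither probe passed. For both the estimate was above 0 in every setting tried, but several of these settings cannot move a log2 fold change.

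**Figure D1:**
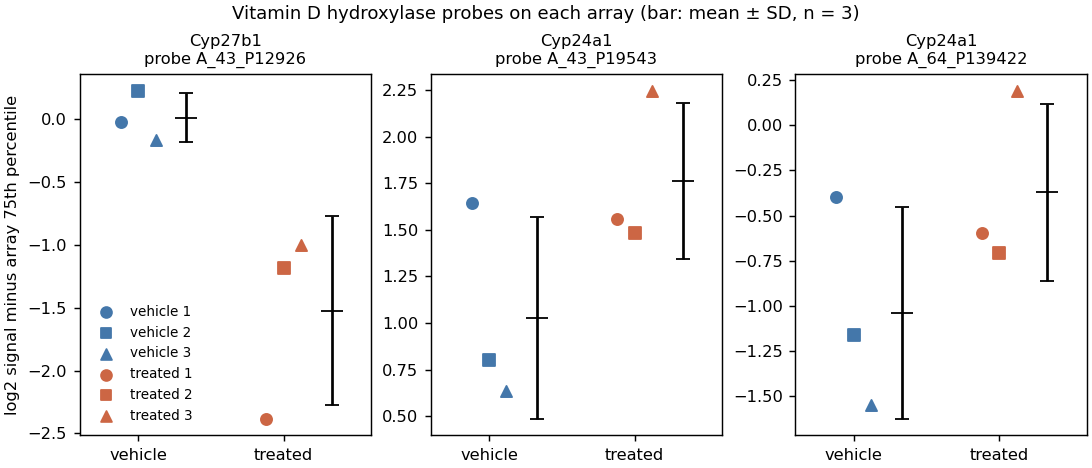
Level of the Cyp27b1 probe and of both Cyp24a1 probes on each array, as log2 signal minus the array's 75th percentile (vertical axis, a separate scale in each panel) for vehicle and treated animals. Points are single animals and bars are the mean ± SD of 3. The treated animals lie between -2.38 and -1.01 for Cyp27b1, below all vehicle animals, while the groups overlap for both Cyp24a1 probes.

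Both enzymes sit in the inner mitochondrial membrane and take electrons from ferredoxin reductase (Fdxr) through ferredoxin (Fdx1). Fdx1 and Fdxr had log2 fold changes of -0.01 ± 0.07 (SE) and -0.02 ± 0.09. Cyp2r1 and Cyp27a1, hydroxylases that can make calcidiol, stood at -0.07 ± 0.10 and -0.14 ± 0.15. None of these passed, and for each of the 4 genes the groups overlapped. Of the markers of the proximal tubule, the segment known for Cyp27b1, 0 of 8 passed, 4 were above 0 and 4 below, and the median log2 fold change was 0.00. Their summed linear signal, in units of the array's 75th percentile, ranged from 1474 to 1565 on the vehicle arrays and from 1492 to 1577 on the treated arrays. In tissue RNA, fewer cells of a type and less RNA per cell cannot be told apart.

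The vitamin D receptor itself showed no consistent direction. The brighter Vdr probe (A_64_P149930, NM_017058) stood at -0.21, -0.08 and 0.18 in vehicle replicates 1, 2 and 3 and at -0.42, 0.22 and 0.11 in treated replicates 1, 2 and 3. Treated replicate 1 was the lowest animal and treated replicate 2 the highest, so the treated animals spanned the vehicle range. The log2 fold change was 0.01 ± 0.19 (SE), with a 95% interval from -0.47 to 0.48. The other Vdr probe (A_44_P276492) stood at 0.03 ± 0.21, with the same animal lowest, at -2.74. Rxra (A_64_P096841, NM_012805), the receptor's partner, ranged from -2.84 to -2.70 in vehicle and from -2.89 to -2.65 in treated animals. Its log2 fold change was 0.05 ± 0.10, with a 95% interval from -0.19 to 0.28. The limma adjusted p was 0.996, 0.982 and 0.921 for these probes. Sign changes of the Vdr and Rxra estimates when an animal was left out are given with the other settings.

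Klotho, the co-receptor for FGF23, and the parathyroid hormone receptor varied little between animals. The probe A_43_P12558 of Kl (NM_031336) stood at 1.78, 1.74 and 1.82 in vehicle replicates 1, 2 and 3 and at 1.69, 1.72 and 1.64 in treated replicates 1, 2 and 3. Treated animals lay below vehicle animals by a small margin, and the log2 fold change was -0.10 ± 0.07 (SE), with a 95% interval from -0.26 to 0.07. The other Kl probe, A_64_P041134, stood at 1.71, 1.75 and 1.63 in vehicle and at 1.80, 1.53 and 1.67 in treated animals, so its groups overlapped. Its log2 fold change was -0.03 ± 0.09. Pth1r (A_44_P527270, NM_020073) stood at 4.39, 4.45 and 4.43 in vehicle and at 4.38, 4.36 and 4.14 in treated animals. The treated values lay below the vehicle values, with treated replicate 3 apart from the rest. The log2 fold change of Pth1r was -0.13 ± 0.09, and it was -0.06 without treated replicate 3. The limma adjusted p was 0.724 and 0.951 for the Kl probes and 0.711 for Pth1r, and none passed.

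The calcium-binding proteins of the distal tubule had estimates of opposite sign, and neither passed. Calb1 (A_44_P236255, NM_031984), the larger calbindin, stood at 2.40, 2.87 and 2.80 in vehicle replicates 1, 2 and 3 and at 2.45, 2.21 and 2.49 in treated replicates 1, 2 and 3. Vehicle replicate 1 fell among the treated animals, and the other vehicle animals lay above all of them. The log2 fold change was -0.31 ± 0.15 (SE), with a 95% interval from -0.67 to 0.06 and a limma adjusted p of 0.632. It was -0.45 without vehicle replicate 1, -0.22 without vehicle replicate 2 and -0.22 on the slide that held both groups. S100g (A_43_P11444, NM_012521), the small calbindin, stood at 2.21, 1.62 and 1.74 in vehicle and at 2.14, 2.52 and 1.59 in treated animals. Its highest and its lowest value both belonged to treated animals. The log2 fold change was 0.23 ± 0.27, with a limma adjusted p of 0.838. It was 0.01 without treated replicate 2, which is also the value within the slide that held both groups, and 0.11 without vehicle replicate 2. The estimate was larger, at 0.41, without vehicle replicate 1 and at 0.48 without treated replicate 3. The difference between the changes of Calb1 and S100g was not tested.

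Trpv5 encodes the apical calcium channel of the distal tubule. Its brighter probe (A_64_P143825, NM_053787) stood at -2.55, -2.33 and -2.49 in vehicle replicates 1, 2 and 3 and at -2.75, -2.04 and -2.55 in treated replicates 1, 2 and 3. The treated animals again held both the highest and the lowest value. The log2 fold changes of the Trpv5 probes were 0.01 ± 0.19 (SE) and, for A_44_P228928, -0.07 ± 0.15, with limma adjusted p of 0.991 and 0.919. Slc8a1 encodes the basolateral sodium-calcium exchanger and had 4 probes, all designed on NM_019268, whose estimates did not share a sign. A_44_P323285, the brightest, stood at 0.06 ± 0.19 and A_64_P008607 at 0.18 ± 0.24, both with overlapping groups. In A_64_P008607 treated replicate 1 stood at -1.59, and the other 5 animals lay between -2.45 and -2.14. A_64_P008602 stood at -0.20 ± 0.09, with vehicle animals from -1.97 to -1.78 and all treated animals below them. A_44_P290391 stood at -0.14 ± 0.07, with treated animals from -2.25 to -2.15 and vehicle animals from -2.10 to -2.02. In these last probes the groups did not overlap, and the limma adjusted p was 0.604 and 0.632.

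**Figure D2:**
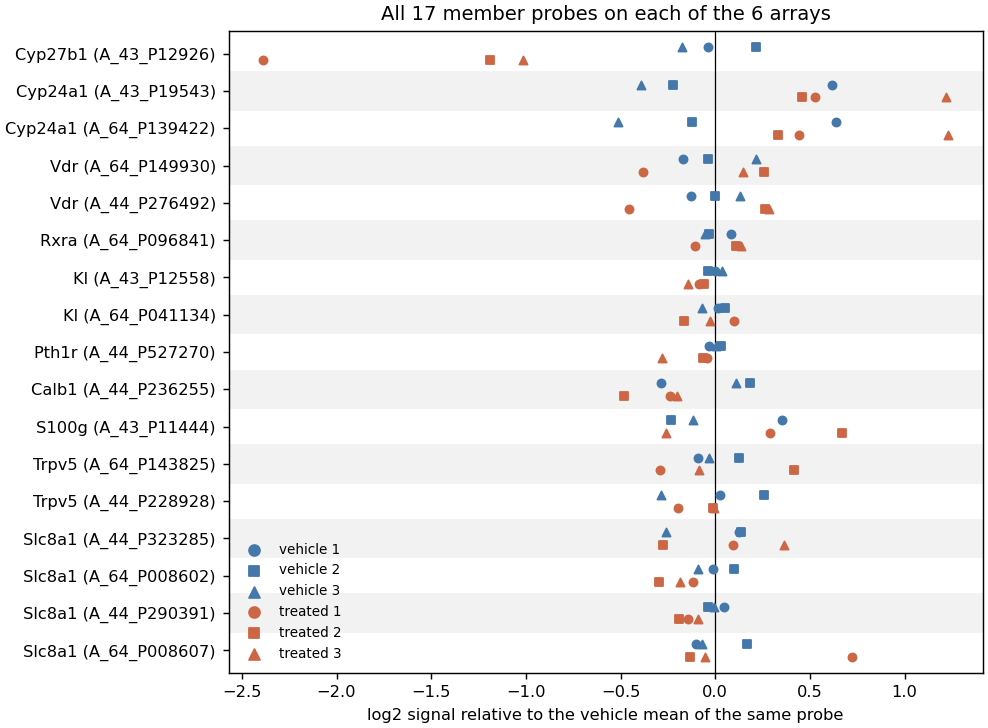
Each of the 17 probes (rows) on each of the 6 arrays, as log2 signal relative to the vehicle mean of that probe (horizontal axis). Blue marks are vehicle animals and orange marks treated animals, with 1 shape per replicate number. Treated replicate 1 stands far to the left for Cyp27b1 and to the right for 1 Slc8a1 probe, and treated replicate 3 is the rightmost mark for both Cyp24a1 probes.

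Over the 17 probes the treated animals lay wholly below the vehicle animals for 5, or 29.4%, and wholly above for 0. The 5 were the probe of Cyp27b1, 1 of Kl, the probe of Pth1r and 2 of Slc8a1. Over all probes tested, treated animals lay wholly below for 8.61% and wholly above for 6.3%. The genes were chosen with this contrast known and some probes share a gene, so nothing is read from these shares. Estimates were above 0 for 9 of the 17 probes and below 0 for 8, where 47.4% of all probes were above 0. The spread between animals differed among the genes. In vehicle animals the SD was 0.54 and 0.59 for the Cyp24a1 probes and 0.31 for S100g, but 0.04 and 0.06 for the Kl probes and 0.03 for Pth1r. In treated animals it was 0.42 and 0.49 for the Cyp24a1 probes and 0.47 for S100g. For the Kl probes it was 0.04 and 0.13 there, and for Pth1r 0.13. Cyp27b1 had an SD of 0.20 in vehicle and 0.75 in treated animals.

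**Figure D3:**
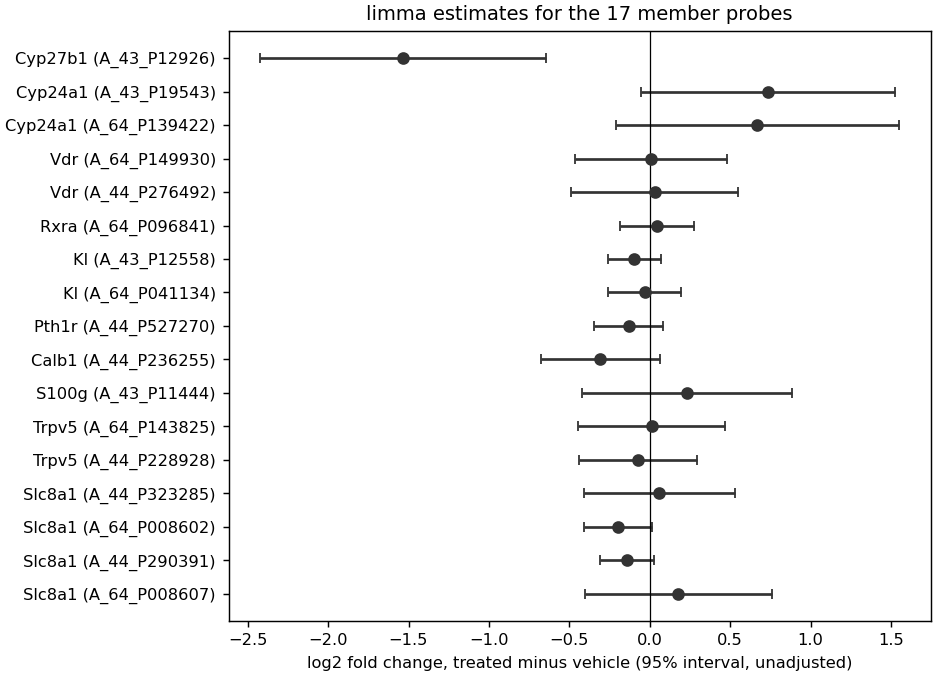
limma log2 fold change, treated minus vehicle (horizontal axis), of each of the 17 probes with its unadjusted 95% interval. The interval of Cyp27b1, from -2.42 to -0.64, is the one that does not cross 0, and the Cyp24a1 intervals reach from below 0 to 1.52 and 1.55.

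None of the other genes of the same pathways passed. A list of 45 such genes was used, of which 40 had a named probe and 35 were tested, each by its brightest kept probe. limma called 0 of the 35, beside 0 of 11913 named genes (0%). Estimates were above 0 for 15 and below 0 for 20, where 46.8% of all named genes were above 0. The median log2 fold change was -0.02, and it was -0.01 over all named genes. The treated animals lay wholly above the vehicle animals for 2 genes (Fgfr3 and Cldn2) and wholly below for 3 (Amn, Fgfr2 and Trpv6), where the shares over all named genes were 6.87% and 8.76%. The probes of Fgf23, Pth, Pth2r, Atp2b4 and Slc8a3 were well above background on fewer than 3 arrays and were not tested, and Ncoa1, Ncoa3, Med1, Ncor1 and Klb had no named probe.

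Uptake of filtered vitamin D was represented by 5 genes with a median log2 fold change of 0.02. Megalin (Lrp2) stood at 0.02 ± 0.09 (SE) and cubilin (Cubn) at 0.09 ± 0.11. Gc, the carrier protein of vitamin D, stood at -0.21 ± 0.76 and ranged from -1.65 to 0.92 in vehicle animals alone. Among the 3 tested receptor partners the estimate farthest from 0 was that of the coactivator Ncoa2, at -0.11 ± 0.09. Among the 4 tested FGF receptors it was that of Fgfr3, at 0.22 ± 0.09, with vehicle animals from 0.09 to 0.29 and treated animals from 0.35 to 0.55. Fgfr1, a receptor that klotho is known to pair with, stood at 0.13 ± 0.09. Of the genes of parathyroid hormone signalling and its phosphate targets, 6 were tested with a median of -0.02. Pthlh, the hormone's relative made within tissues, stood at -0.17 ± 0.13, and the phosphate carriers Slc34a1 and Slc34a3 at -0.04 ± 0.08 and -0.01 ± 0.07. None of these genes passed.

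Calcium sensing and the paracellular path had 5 tested genes with a median of 0.02. The calcium-sensing receptor Casr stood at -0.06 ± 0.10 (SE). Cldn19, a tight junction protein that works with Cldn16, stood at -0.39 ± 0.17, with a limma adjusted p of 0.606, and Cldn16 at 0.02 ± 0.13. The transcellular path had 8 tested genes with a median of -0.13. Its largest estimate was that of Sgk1, a kinase induced by aldosterone and glucocorticoids, at -0.87 ± 0.37. Sgk1 stood at 3.43, 2.95 and 2.98 in vehicle replicates 1, 2 and 3 and at 2.30, 1.49 and 2.96 in treated replicates 1, 2 and 3. Treated replicate 3 lay within the vehicle range, and the limma adjusted p was 0.593. Trpv6, the close relative of Trpv5, stood at -0.37 ± 0.11 with a limma adjusted p of 0.489, and was singled out after its values were seen. Its vehicle animals ranged from -4.33 to -4.05 and its treated animals from -4.60 to -4.40, so the groups did not overlap. The calcium pump Atp2b1 stood at 0.01 ± 0.11.

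**Figure D4:**
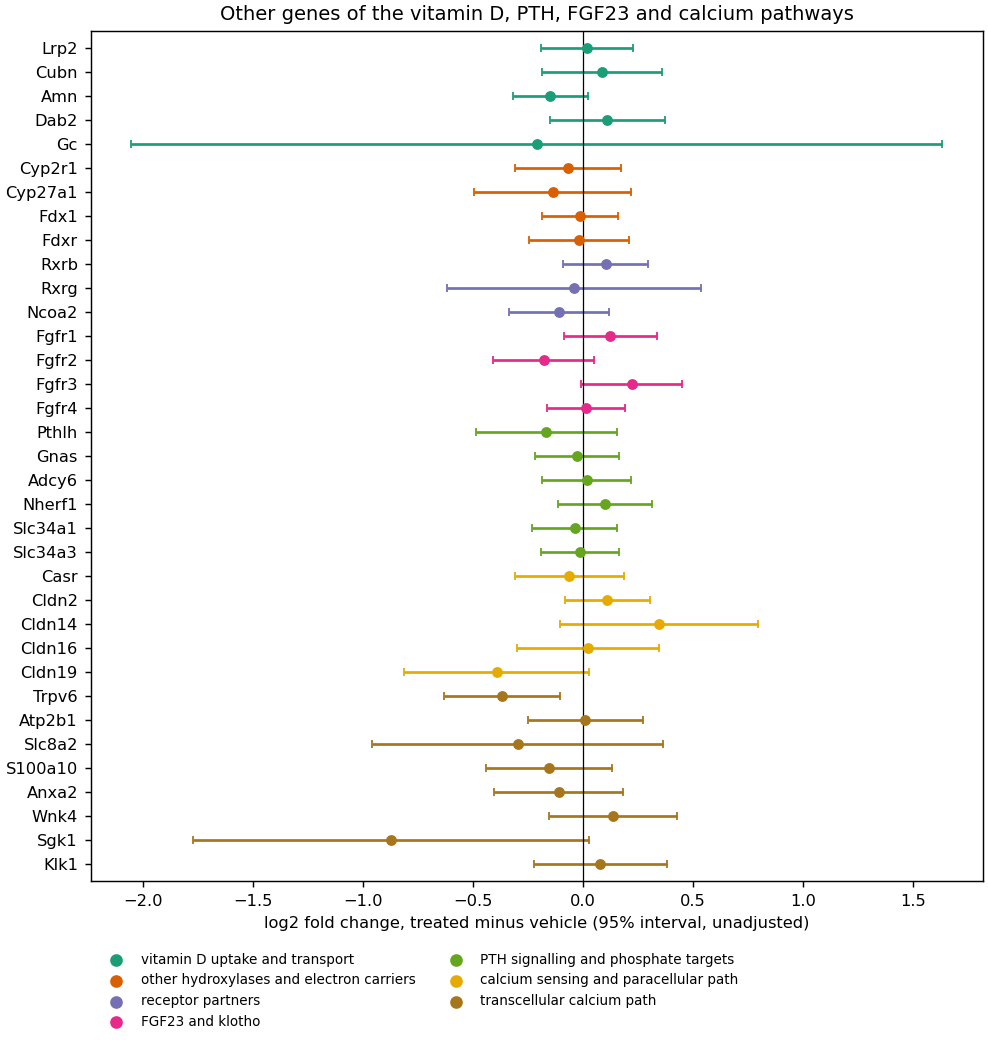
limma log2 fold change, treated minus vehicle (horizontal axis), with its unadjusted 95% interval for the 35 tested genes of the pathway list, coloured by sub-list. Most estimates lie near 0, and Sgk1 stands farthest from it at -0.87.

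Markers of the segments that hold these genes are given beside them. Of the distal convoluted and connecting tubule markers, 2 were tested. Slc12a3, the thiazide-sensitive cotransporter, stood at 0.06 ± 0.10 (SE) and Egf at -0.19 ± 0.07, with treated Egf values wholly below vehicle values. Pvalb was well above background on 0 of the 6 arrays, and Trpm6 and Klhl3 had no named probe. The summed linear signal of these markers ranged from 53.8 to 57.9 on the vehicle arrays and from 50.4 to 54.9 on the treated arrays. Collecting duct markers had 5 of 5 estimates below 0 and a median of -0.16, with sums from 213.8 to 249.1 in vehicle and from 196.0 to 226.6 in treated animals. Their part in the Calb1 values was not tested. Estimates of the erythrocyte markers were above 0 for 2 of 2 (Hbb at 0.31 and Alas2 at 0.62) and of the fibroblast markers for 3 of 4 (median 0.22). No marker of any of the 10 lists passed, and their part in the Cyp27b1 and Cyp24a1 values was not tested. Among the 40 tested markers, treated values lay wholly below vehicle values for Egf, Aqp2, Akr1b1 and Cd74. They lay wholly above for Aqp4, Col1a1, Pdgfrb and Alas2. The shares over all named genes were 8.76% below and 6.87% above, so the separation of Egf is not particular to its segment. The medians of the other lists were 0.00 for the thick ascending limb, -0.09 for podocytes, -0.04 for the medulla, -0.04 for endothelium and -0.17 for leukocytes. The medulla estimates ranged from -0.32 ± 0.16 (SE) for Akr1b1 to 0.52 ± 0.18 for Aqp4. The leukocyte list includes Cd3e, which was well above background on only 1 of the 3 treated arrays.

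Among 11903 other named genes, those whose levels followed Cyp27b1 most closely over the 6 arrays were Adam4l1, Ctu1 and Glt6d1, with Pearson correlations of 0.999, 0.988 and 0.988 as a measure of likeness. For the brighter Cyp24a1 probe they were Man1c1, Kng2l1 and Hoxb3, at 0.991, 0.978 and 0.973, and for Calb1 they were Ctsc, Desi1 and Mkks, at 0.993, 0.989 and 0.987. With 6 arrays and so many candidates high values are common: 48 genes exceeded 0.95 for Cyp27b1, 11 for Cyp24a1 and 30 for Calb1. The points share arrays and treatment groups, so these values are a description. Some levels were near background. Glt6d1 stood at -6.92 in treated replicate 1, where the lowest level well above background was -5.26. Hoxb3 was also below the lowest such level in vehicle replicate 2 (-6.30 against -6.08) and vehicle replicate 3 (-6.48 against -5.60). The same held for Hoxb3 in treated replicate 1 (-5.65 against -5.26).

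**Figure D5:**
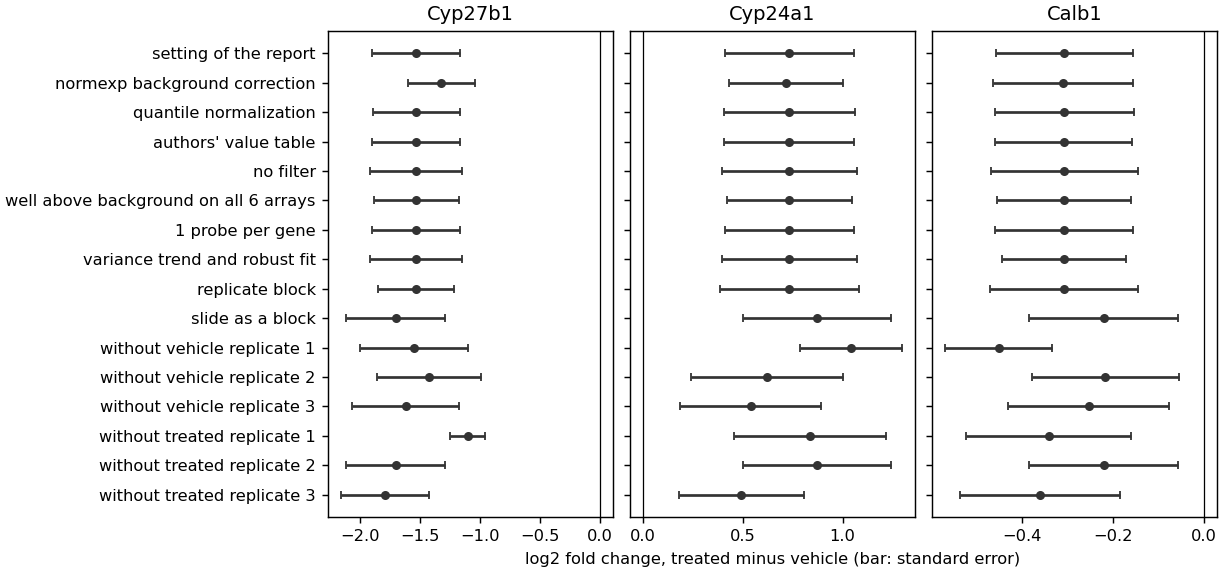
limma log2 fold change with its standard error (horizontal axis, a separate scale in each panel) for Cyp27b1, the brighter Cyp24a1 probe and Calb1 under each processing setting and with each animal left out (rows). The estimates keep their sign throughout, from -1.79 to -1.10 for Cyp27b1, from 0.49 to 1.04 for Cyp24a1 and from -0.45 to -0.22 for Calb1. None passed the threshold, and several of the settings cannot move an estimate.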

How the data were processed

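Agilent Feature Extraction 10.7 quantified the spots, per the submitters' processing notes. Per the file headers, the deposited scanner files hold linear intensity values: a processed signal with background removed but no scaling between arrays, and medians for spot and background. The authors' deposited value table was found to be a ratio of the processed signal to the 75th percentile of each array, linear and uncentred. Each column matched a scanner file of its own group with another replicate number. Which numbering holds is unknown, and replicates are named here by scanner file. So named, the medians of the columns were 0.107, 0.104 and 0.105 for vehicle and 0.105, 0.104 and 0.106 for treated replicates 1, 2 and 3.

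From 61657 non-control probes, 84 external RNA controls and 47 outlier-flagged probes were removed. No used spot was saturated. The log2 processed signal minus the array's 75th percentile was fitted with limma 3.58.1 in R 4.3.3 (statmod 1.5.0, jsonlite 2.0.0, data.table, version 1.17.8), each probe on its own, keeping those well above background on 3 or more of the 6 arrays. The fit was tested on simulated data. With 3 arrays per group precision was limited, and the median SE of a log2 fold change was 0.11. In vehicle replicates 1, 2 and 3, 69.1%, 69.3% and 66.0% of probes were well above background. In treated replicates 1, 2 and 3 the shares were 63.7%, 68.3% and 64.7%. The arrays lay on 2 slides, 1 of which held treated replicate 2 only.

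Probes were named through RefSeq accessions of build GRCr8 (27435 named, 34091 not). The array design uses another build, so no probe coordinates are given. One further gene was chosen with the pathway list but was left out of its counts, values and figure, and is not reported here. Members and lists were chosen with earlier results of these data known. Named were every probe of the members, the gene with the estimate farthest from 0 among those reported in each sub-list of the pathway list, abundant markers, and the 3 genes most like Cyp27b1, Cyp24a1 and Calb1. Further genes of the lists are given as examples, picked with their values known. Alternatives were normexp background correction (offset 50), quantile normalisation, the authors' table, dropping the filter, a stricter filter of all 6 arrays, a single probe for each gene, a robust variance trend, blocks for replicate number or for slide, and leaving out each array.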

Additional observations from a re-analysis of the deposited data

How the results depend on the processing

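No probe of the 10 genes passed the threshold under any of the 15 other settings. The same held for the brightest kept probe of each tested gene of the pathway list and of the markers. Other probes of those genes were not checked under these settings. Over all probes limma called 6 with normexp background correction, 6 under the robust variance trend, 1 with the filter of all 6 arrays, 4 with the slide as a block, and from 0 to 4 when 1 array was left out. The counts were 3 without vehicle replicate 2, 3 when treated replicate 1 was left out and 4 when treated replicate 2 was. The last equals the slide fit, because no other array shared that slide. Of 248 estimates for the 17 probes, 227 kept their sign and 21 did not. Changing the filter, using a single probe per gene, the robust variance trend and the replicate block cannot move a log2 fold change. The slide block repeats the fit without treated replicate 2. The count of kept signs is therefore not a rate of stability. With normexp background correction Trpv5 A_64_P143825 stood at -0.031. With the slide as a block Vdr A_64_P149930 stood at -0.12, Vdr A_44_P276492 at -0.086, Kl A_64_P041134 at 0.038 and Trpv5 A_64_P143825 at -0.19. Without 1 array the ranges were -0.12 to 0.20 for Vdr A_64_P149930, -0.098 to 0.27 for Vdr A_44_P276492, -7.79e-05 to 0.12 for Rxra A_64_P096841 and -0.096 to 0.038 for Kl A_64_P041134. They were -0.19 to 0.16 for Trpv5 A_64_P143825, -0.21 to 0.056 for Trpv5 A_44_P228928, -0.090 to 0.23 for Slc8a1 A_44_P323285 and -0.095 to 0.33 for Slc8a1 A_64_P008607. The cause was not tested. The deviations of same-numbered samples correlated at 0.007, -0.044 and -0.005, and those of samples with other numbers at -0.084 to 0.085. With 3 animals per group these values cannot tell whether the replicate numbers pair the animals. With the replicate number as a block limma called 0 probes, and Cyp27b1 had an adjusted p of 0.602. Its log2 fold change of -1.53 cannot move in that fit, because each group holds every replicate number. With 3 animals per group, none of the differences seen for the 10 genes was resolved at the threshold, that of Cyp27b1 included.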

Other observations

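The 2 hydroxylases of calcitriol were also set against each other within each animal, after their values were seen. The log2 level of the brighter Cyp24a1 probe minus that of Cyp27b1, each relative to its own vehicle mean, was 0.65, -0.44 and -0.21 in vehicle replicates 1, 2 and 3. It was 2.92, 1.65 and 2.23 in treated replicates 1, 2 and 3. The mean was 2.27 ± 0.64 (SD, n = 3) in treated animals and 0 ± 0.58 (SD, n = 3) in vehicle animals, where 0 follows from the definition. All treated animals lay above all vehicle animals. The groups were already apart for Cyp27b1 alone, with a log2 fold change of -1.53, and overlapped for this Cyp24a1 probe, at 0.73. The separation therefore adds nothing to that of Cyp27b1. The animals with the lowest Cyp27b1 and the highest Cyp24a1 were not the same: treated replicate 1 held the former and treated replicate 3 the latter. This difference was chosen for its size and has no test.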
